A study of Mus musculus with 24 samples.

Results

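Neutrophil granule genes were examined in murine cartilage explants. The group held the 10 rows of the deposited count matrix, of 52178 genes in all, whose symbols were S100a8, S100a9, Elane, Mpo, Ltf, Ngp, Camp, Lcn2, Prtn3 and Retnlg. They were chosen by name, and each was read in all 24 libraries. The hip caps were the femoral head cartilage of 4-week-old male C57/BL6 mice (C57/BL6J in the study's methods), with the 2 hip caps of 1 mouse pooled per sample, and the metatarsals were rudiments of E15 C57/BL6 embryos, with 6 pooled per sample. No transgene or drug was named for any group. Explants were cultured for 24 hours, held for 1 hour at 0 (control), 5 or 50 MPa of hydrostatic pressure, which the labels write as mPa, and cultured for a further 24 hours. Each of the 6 groups had 4 libraries of rRNA-depleted total RNA, numbered 1 to 4. Hip cap library 4 at 0 MPa and library 2 at 50 MPa were left out by the study as outliers, so the tests used the other 22 and the values of both are given separately.

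Neutrophils are short-lived phagocytes that are made in the bone marrow after birth and carry their killing proteins in granules. The granules are filled in waves as the cell matures. Azurophil granules are loaded in promyelocytes with myeloperoxidase (Mpo) and the serine proteases neutrophil elastase (Elane) and proteinase 3 (Prtn3). Specific granules follow in myelocytes, with lactoferrin (Ltf), neutrophilic granule protein (Ngp), cathelicidin (Camp) and lipocalin 2 (Lcn2). S100a8 and S100a9 encode the calgranulins, which pair to form calprotectin in the cytosol, and Retnlg encodes a small secreted resistin-like protein of mature neutrophils. Lcn2 is not restricted to neutrophils, as chondrocytes, osteoblasts and many epithelia also make it. In bulk tissue, fewer cells of a type and less RNA per cell cannot be told apart.

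Total counts ranged from 4185241 to 25104240 per library. Within the hip caps, all 5 MPa libraries came from sequencing run 2 and were stranded, all 50 MPa libraries came from run 1 and were unstranded, and control libraries 1 to 3 came from run 1, of which library 3 was unstranded. Control library 4 came from run 2. In the metatarsals, control library 1 and 50 MPa library 4 came from run 1, and the latter was unstranded. Library types are from the labels. The runs were read from a colour strip in the study's clustering figure, and their sizes do not match the libraries per sequencing kit that its methods give, so the runs are uncertain. On this reading, the comparison of the tissues at 5 MPa was the only one of the 3 free of run and library type. The tissues still differed in age and culture medium at every pressure. All hip caps were from male mice, and no sex was given for the embryos in the study's methods. The study's methods give Dulbecco's Modified Eagle Medium for hip caps and supplemented α-Minimum Essential Medium for metatarsals. The part of age, sex and medium in the differences between tissues was not tested. The study also reported RNA integrity below the ideal minimum in all samples. The metatarsal pools were not tied to litters by the labels, so the p-values there measure only the spread between pools.

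The promoters of 6 granule genes are shown. They include the genes that differed most between the tissues at 5 MPa among the 8 that passed the filter on low counts. Elane and Retnlg did not pass that filter. Lcn2 was added because it was found everywhere. The neighbouring genes S100a8 and S100a9 lie on chromosome 3, Ltf, Ngp and Camp share chromosome 9 without being adjacent, and Lcn2 lies on chromosome 2. Each sequence is the 250 bases before the start site from RefSeq on GRCm38.p6, 5′ to 3′ on the gene's own strand, and capitals mark the letters TTNNGNAA, the core of the motif bound by C/EBP factors, on either strand. C/EBP alpha and C/EBP epsilon are the factors known for driving granule genes through granulocyte maturation. The regions were chr3:90668821-90669070 (plus strand), chr3:90695722-90695971 (minus), chr9:111019042-111019291 (plus), chr9:110419558-110419807 (plus), chr9:109849457-109849706 (minus) and chr2:32387740-32387989 (minus).
S100a8: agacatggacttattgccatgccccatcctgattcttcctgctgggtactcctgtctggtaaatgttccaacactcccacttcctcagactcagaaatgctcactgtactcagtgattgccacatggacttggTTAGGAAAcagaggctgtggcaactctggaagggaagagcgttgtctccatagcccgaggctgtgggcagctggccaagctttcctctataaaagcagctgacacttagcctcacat
S100a9: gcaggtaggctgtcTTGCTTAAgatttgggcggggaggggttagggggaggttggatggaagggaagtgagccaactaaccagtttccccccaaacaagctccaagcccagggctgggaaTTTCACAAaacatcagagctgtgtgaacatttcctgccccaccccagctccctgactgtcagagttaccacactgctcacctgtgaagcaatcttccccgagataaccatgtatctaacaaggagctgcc
Ltf: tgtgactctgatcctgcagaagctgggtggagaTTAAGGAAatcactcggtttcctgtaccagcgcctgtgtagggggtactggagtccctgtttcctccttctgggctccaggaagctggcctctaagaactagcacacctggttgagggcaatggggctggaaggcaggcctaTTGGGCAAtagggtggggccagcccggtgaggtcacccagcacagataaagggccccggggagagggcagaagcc
Ngp: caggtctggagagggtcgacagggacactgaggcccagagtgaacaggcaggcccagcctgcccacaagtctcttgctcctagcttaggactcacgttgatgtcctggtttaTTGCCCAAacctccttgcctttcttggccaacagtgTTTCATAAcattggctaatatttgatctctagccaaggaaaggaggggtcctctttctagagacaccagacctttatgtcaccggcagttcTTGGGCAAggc
Camp: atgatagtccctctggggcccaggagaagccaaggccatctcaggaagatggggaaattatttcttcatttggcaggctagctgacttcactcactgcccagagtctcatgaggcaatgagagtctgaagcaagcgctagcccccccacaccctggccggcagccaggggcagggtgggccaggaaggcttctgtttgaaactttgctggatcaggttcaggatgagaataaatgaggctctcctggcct
Lcn2: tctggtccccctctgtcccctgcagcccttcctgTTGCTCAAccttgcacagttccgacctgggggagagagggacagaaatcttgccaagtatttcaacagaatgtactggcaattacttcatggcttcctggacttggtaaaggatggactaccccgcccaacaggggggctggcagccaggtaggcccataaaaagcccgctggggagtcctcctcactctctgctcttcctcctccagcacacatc

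All 10 genes had an entry in the promoter table. TTNNGNAA was present in 6 of the 10 windows, against 36.8% of the 32851 windows of the same length in the table. Ngp held it 3 times, S100a9 and Ltf 2 times each, and S100a8, Lcn2 and Retnlg 1 time each, while Elane, Mpo, Prtn3 and Camp did not hold these letters. GAGGAA, a form of the site bound by the myeloid factor PU.1, was present in 6 of the 10 windows (Elane, Mpo, Prtn3, S100a8, Ltf and Lcn2) and in 23.3% of all windows. TATAAA was present in S100a8 alone of the 10 and in 12.4% of all windows. Both strands were searched, the PU.1 and C/EBP letters could overlap, and a match is a description of the letters and not of binding.

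Levels per length were compared in hip cap 5 MPa library 3, where most of the 10 genes were highest, and the calgranulins led there. S100a9 was at 99.2 counts per 1000000 counts (CPM) per kb of exon, S100a8 at 59.8, Ngp at 30.7, Lcn2 at 9.92, Ltf at 8.85, Camp at 8.11, Mpo at 3.22, Retnlg at 2.95, Elane at 2.34 and Prtn3 at 1.18. This order did not hold in every group. For S100a9, S100a8 and Lcn2 the medians per kb over the hip caps used were 7.69, 5.34 and 4.32 in controls. They were 12.5, 10.1 and 8.86 at 5 MPa, and 3.13, 4.33 and 4.95 at 50 MPa, where Lcn2 led. S100a8 (ENSMUSG00000056054) was at 0, 3.70, 6.00 and 12.8 CPM in hip cap control libraries 1 to 4, at 10.4, 3.14, 41.5 and 3.50 at 5 MPa and at 2.05, 3.43, 5.64 and 3.00 at 50 MPa. In the metatarsals it was at 0.556, 0.777, 0.332 and 0.150 CPM in controls, 0.391, 0.105, 0.114 and 0.0824 at 5 MPa and 0, 0.173, 0.116 and 0.295 at 50 MPa, which was at most 15 counts in any library. Every hip cap library except control library 1, which had 0 counts, lay above all 12 metatarsal libraries, and library 3 at 5 MPa stood above every other library.

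S100a9 (ENSMUSG00000056071) was likewise a hip cap gene in these explants. It was at 2.11, 4.01, 11.3 and 11.4 CPM in hip cap controls, 10.4, 2.66, 51.8 and 2.18 at 5 MPa and 1.64, 7.91, 4.63 and 1.5 at 50 MPa. The metatarsals held 0, 25, 4 and 0 counts in controls, 6, 0, 2 and 3 at 5 MPa and 0, 1, 6 and 3 at 50 MPa. In CPM, all 12 hip cap libraries lay above all 12 metatarsal libraries for this gene. The closest were hip cap 50 MPa library 4 (5 counts, 1.5 CPM) and metatarsal control library 2 (25 counts, 1.29 CPM). Their total counts were 7565163 and 17320753, and their library scaling factors (TMM) were 0.44 and 1.115. Without these factors the order of those libraries is reversed, so the full separation came from library scaling. The partner genes were detected at similar counts, and S100a9 made up between 38.3% (95% Wilson interval 30.1% to 47.3%, hip cap 5 MPa library 4) and 69.7% (58.7% to 78.9%, hip cap 50 MPa library 2) of the summed calgranulin counts in the 11 libraries with at least 30 such counts. These intervals cover counting error only.

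The specific granule genes Ltf, Ngp and Camp were also read mainly in hip caps. Ltf (ENSMUSG00000032496), an iron-binding protein, was at 3.16, 0.617, 16.1 and 1.98 CPM in hip cap controls, 7.62, 1.30, 30.5 and 0.757 at 5 MPa and 0.307, 5.37, 0.806 and 0 at 50 MPa. In the metatarsals its counts were 0, 0, 12 and 0 in controls, 1, 0, 0 and 6 at 5 MPa and 0, 2, 0 and 3 at 50 MPa, so that 7 of 12 libraries had 0. The hip cap range was wide, and control library 3 and 5 MPa library 3 were the 2 highest.

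Ngp (ENSMUSG00000032484), a cystatin-like protein of specific granules, had the highest ratio of hip cap to metatarsal counts of the 10 at 5 MPa. It was at 1.05, 0.772, 3.04 and 1.43 CPM in hip cap controls, 8.77, 0.886, 37.6 and 0.852 at 5 MPa and 0.614, 2.69, 1.01 and 0 at 50 MPa. Its metatarsal counts were 0, 0, 0 and 0 in controls, 0, 0, 2 and 2 at 5 MPa and 0, 0, 0 and 7 at 50 MPa. Against a floor of 3 counts in each metatarsal control library, the mean of the 3 hip cap controls used was at least 5.89-fold higher.

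Camp (ENSMUSG00000038357), the precursor of the antimicrobial peptide of the cathelicidin family, had a narrower range than Ltf or Ngp in hip caps. It was at 0.791, 0.309, 3.97 and 0.886 CPM in hip cap controls, 1.27, 0.818, 6.14 and 0.663 at 5 MPa and 1.74, 1.64, 1.48 and 0 at 50 MPa, and the metatarsals had between 0 and 11 counts per library. The hip cap and metatarsal libraries overlapped at 0 and 50 MPa and did not overlap at 5 MPa.

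Lcn2 (ENSMUSG00000026822), which binds bacterial siderophores, was the one granule gene found at substantial counts in every library of both tissues. It was at 11.3, 4.94, 30.6 and 20.5 CPM in hip cap controls, 20.4, 14.6, 26.0 and 27.5 at 5 MPa and 13.0, 7.61, 46.1 and 7.20 at 50 MPa. The metatarsals were at 6.68, 13.2, 8.75 and 4.19 CPM in controls, 9.95, 10.8, 7.14 and 7.66 at 5 MPa and 9.68, 6.34, 16.6 and 11.5 at 50 MPa. Library 3 at 5 MPa was not the highest hip cap library for Lcn2, unlike for the other 9 genes but Elane and Prtn3, which were highest in 50 MPa library 2. Across the 12 hip caps the correlation of log2 CPM with the mean of the other 9 genes was 0.45 for Lcn2, the lowest of the 10, and 0.93 for S100a9, the highest. These libraries share run and library type within pressures except in the controls, and without library 3 at 5 MPa the values were 0.40 and 0.87.

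**Figure D1:**
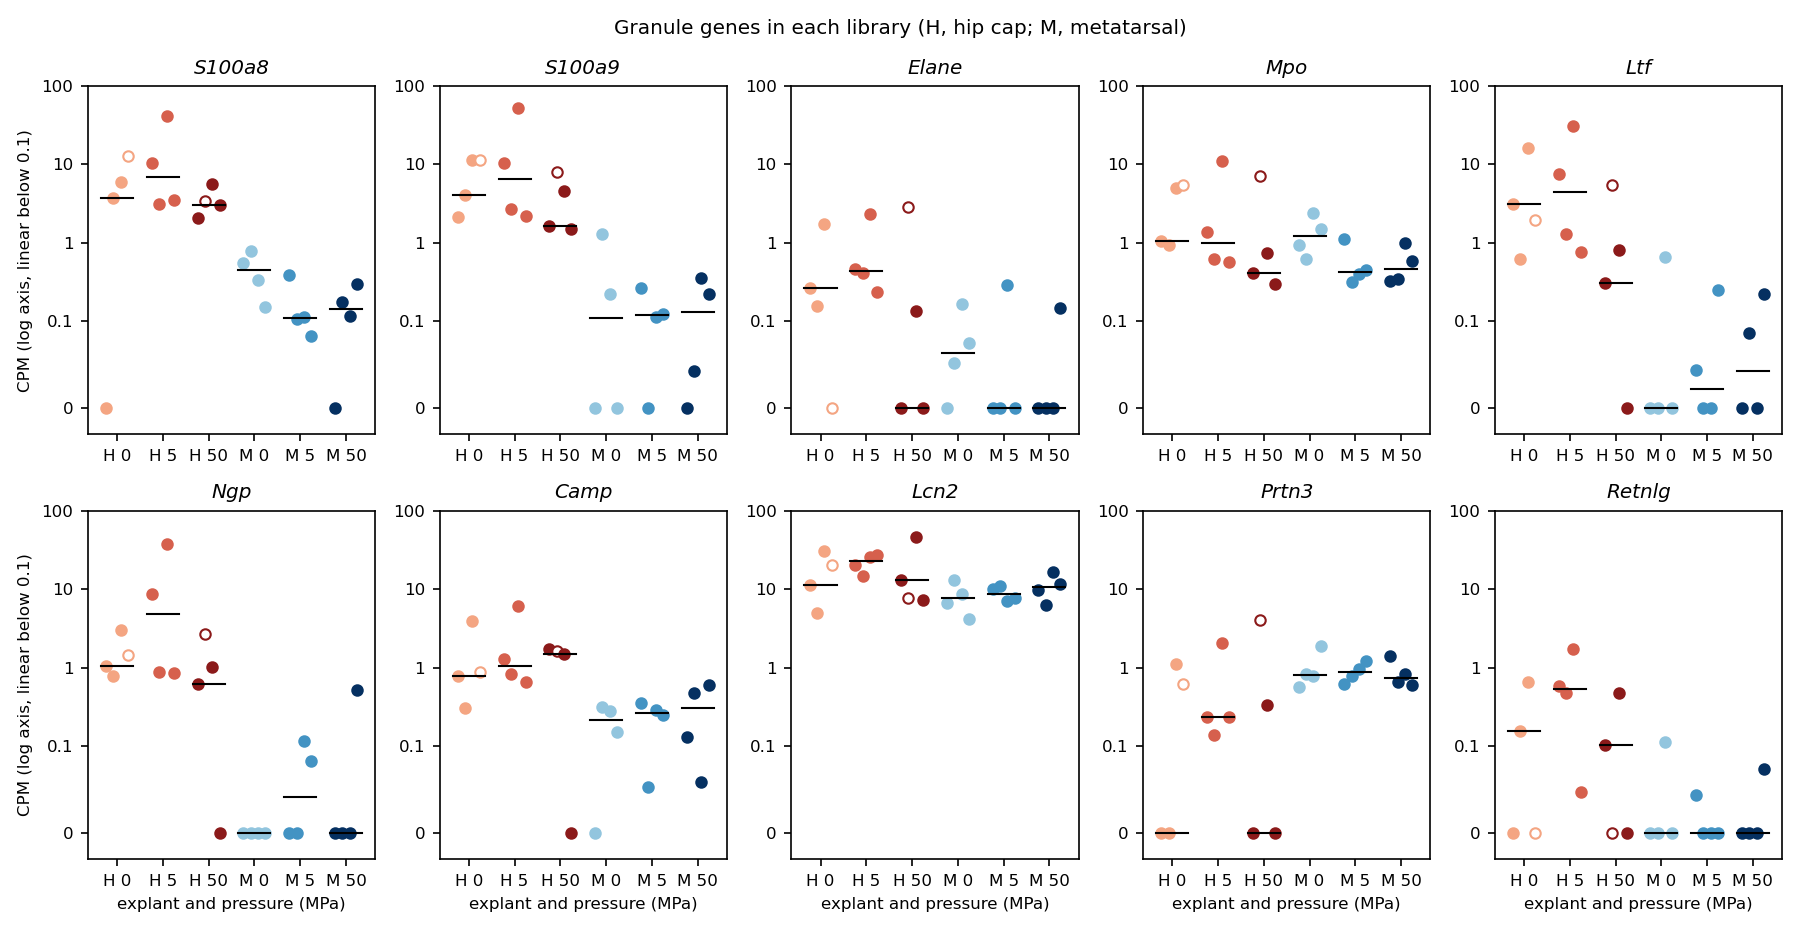
Level of each of the 10 genes in the 24 libraries, as CPM on a log axis that is linear below 0.1, by explant (H, hip cap; M, metatarsal) and pressure in MPa; points are libraries, open points are the 2 libraries the study left out, and lines are medians of the libraries used. Lcn2 lies between 4.19 and 46.1 CPM in every library, whereas Ngp is at 0 in all 4 metatarsal controls and reaches 37.6 CPM in 1 hip cap library at 5 MPa.

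Of the azurophil granule genes, Mpo and Prtn3 were detected in all 12 metatarsals, whereas Elane was at 0 in 7 of them. Mpo (ENSMUSG00000009350) was at 1.05, 0.926, 4.98 and 5.45 CPM in hip cap controls, 1.39, 0.614, 11.0 and 0.568 at 5 MPa and 0.409, 7.02, 0.738 and 0.300 at 50 MPa. In the metatarsals it was at 0.927, 0.621, 2.38 and 1.5 CPM in controls, 1.13, 0.314, 0.400 and 0.453 at 5 MPa and 0.321, 0.345, 0.990 and 0.590 at 50 MPa. Metatarsal and hip cap libraries overlapped for Mpo at every pressure. Of its 31-base words, 11.9% also occurred on the opposite strand in the overlapping gene Gm11505, which had 0 CPM in 23 of the 24 libraries and 1.49 CPM in hip cap 50 MPa library 2.

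Elane (ENSMUSG00000020125) and Prtn3 (ENSMUSG00000057729) are neighbours on chromosome 10 but parted between the tissues. Elane counts were 1, 1, 19 and 0 in hip cap controls, 8, 6, 46 and 5 at 5 MPa and 0, 19, 2 and 0 at 50 MPa, and at most 5 in any metatarsal library, of which 7 of 12 had 0. Prtn3 counts were 0, 0, 12 and 9 in hip cap controls, 4, 2, 41 and 5 at 5 MPa and 0, 27, 5 and 0 at 50 MPa, and 3, 16, 14 and 25, 14, 15, 17 and 29, and 22, 15, 14 and 8 in the corresponding metatarsals. Prtn3 was thus detected in all 12 metatarsal libraries, at 0.56 to 1.87 CPM, and was at 0 in 4 of 12 hip cap libraries. Of its 31-base words, 7.48% occurred on the opposite strand in Plppr3, a gene known for its expression in neurons. Plppr3 was at 17.0 to 26.8 CPM in metatarsals and 0 to 12.1 CPM in hip caps, highest in 50 MPa library 2, which also had the highest Prtn3. Its part in the Prtn3 values was not tested.

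**Figure D2:**
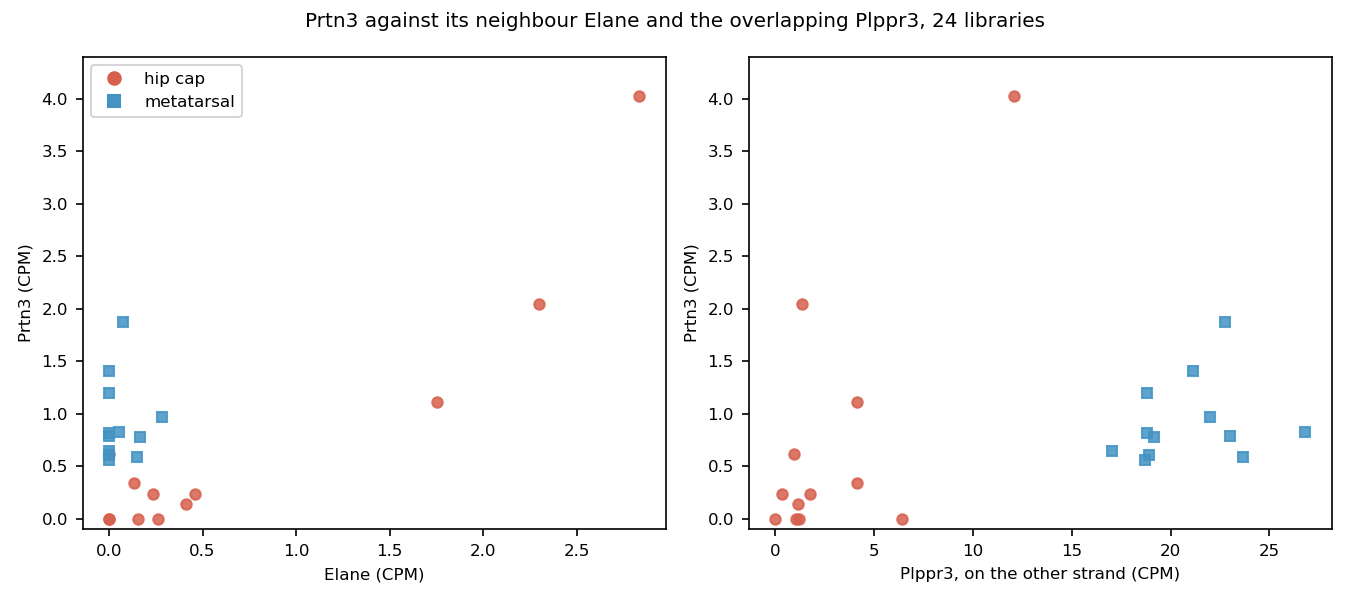
CPM of Prtn3 (vertical axes) in the 24 libraries against CPM of its neighbour Elane (left) and of the overlapping opposite-strand gene Plppr3 (right); circles are hip caps and squares are metatarsals. The metatarsals hold 0.56 to 1.87 CPM of Prtn3 with at most 0.29 CPM of Elane, and lie apart on the Plppr3 axis at 17.0 CPM or more.

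Retnlg (ENSMUSG00000022651) was the least abundant of the 10 in counts, with 0, 1, 7 and 0 in hip cap controls, 10, 7, 35 and 1 at 5 MPa and 1, 0, 7 and 0 at 50 MPa, and at most 2 in a metatarsal library. All 4 hip caps at 5 MPa lay above all 4 metatarsals at 5 MPa in CPM. Hip cap library 4 (0.0473 CPM) and metatarsal library 1 (0.0435 CPM) each had 1 count, so this gap came from library scaling. Of its words, 5.51% were shared with the paralogue Retnla, so its counts are uncertain to that extent.

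Hip caps were compared with metatarsals at each pressure with edgeR's quasi-likelihood test over 21283 genes, with the run and the library type as terms. At 5 MPa, where all libraries shared run and type, most granule genes were higher in hip caps. Of the 10 genes 8 passed the filter on low counts (Elane and Retnlg did not), and 7 of these 8 passed an adjusted p of 0.05, all higher in hip caps, against 37.9% of all genes tested in either direction and 18.8% higher in hip caps. The filter keeps genes that are high in 1 group, so this count describes the genes that could be tested. Read over all 10 genes, the 4 hip caps lay above the 4 metatarsals in 7, the exceptions being Elane, Mpo and Prtn3. For Retnlg, 1 of these 7, the gap was 1 count against 1 count and came from library scaling. Of the 8 tested genes 6 lay above without overlap, against 19.3% of all genes tested. The median log2 fold change of the 8 was 4.75, and that of all genes tested was -0.08. Without the filter all 10 genes were tested, 7 passed against 17.2% of all genes, and Elane and Retnlg had log2 fold changes of 3.66 and 5.22 (adjusted p = 0.00183 and 2.3e-04, edgeR).

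The calgranulins showed the smallest adjusted p-values. S100a8 averaged 14.7 ± 18.2 CPM (SD, n = 4) across the 4 hip caps against 0.173 ± 0.146 CPM (SD, n = 4) across the 4 metatarsals, which gave a fitted log2 difference of 6.31 ± 1.01 (SE, adjusted p = 1.0e-04, edgeR). S100a9 averaged 16.8 ± 23.7 CPM (SD, n = 4) and 0.125 ± 0.107 CPM (SD, n = 4), a log2 fold change of 6.93 ± 1.26 (adjusted p = 4.2e-04, edgeR). In both genes the 4 hip caps lay above the 4 metatarsals, with an exact permutation p = 0.0286 (two-sided), the smallest that 4 against 4 libraries can give.

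Among specific granule genes, Ngp averaged 12.02 ± 17.4 CPM (SD, n = 4) in hip caps, and its log2 fold change was 7.75 ± 1.62 (adjusted p = 0.00339, edgeR). It rested on 4 counts over the 4 metatarsals, and the ratio of the pooled counts was 268 with a 95% counting interval from 104 to 986. Ltf had a log2 fold change of 6.81 ± 1.37 (adjusted p = 9.5e-04, edgeR) and Camp of 3.20 ± 0.75 (adjusted p = 0.00197, edgeR). Lcn2 differed least, with 8.90 ± 1.78 CPM (SD, n = 4) in the embryonic bones, 22.1 ± 5.87 CPM (SD, n = 4) in cartilage of the hip and a log2 fold change of 1.31 ± 0.49 (adjusted p = 0.0446, edgeR). The azurophil genes split, as Mpo was higher in hip caps by 2.54 ± 0.81 (log2, adjusted p = 0.0185, edgeR) while Prtn3 had -0.39 ± 0.69 (adjusted p = 0.689, edgeR). The calls for Mpo and Lcn2 were the least secure, since neither passed with library sizes in place of TMM, without the filter or over all 24 libraries (adjusted p = 0.0540, 0.0541 and 0.0640 for Mpo and 0.391, 0.0892 and 0.0638 for Lcn2, edgeR), whereas S100a8, S100a9, Ngp, Ltf and Camp passed in each. With library type as the only batch term the same 7 genes passed. Lcn2 also missed the threshold in 9 of the 22 fits that left out 1 library. DESeq2 called 9 of 10, all but Prtn3, against 21.3% of all genes. Library sizes alone moved the median of all genes at 5 MPa from -0.08 to -0.70.

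**Figure D3:**
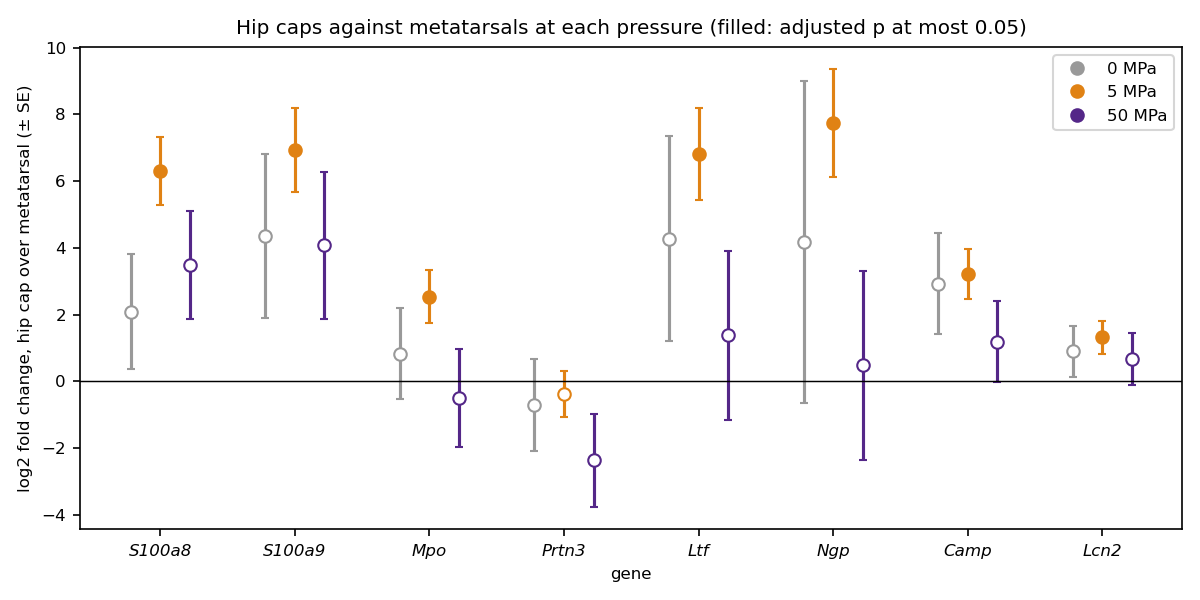
Log2 fold change of hip caps over metatarsals (vertical axis, ± SE of the edgeR fit) for the 8 genes tested, at 0, 5 and 50 MPa; filled points have an adjusted p of at most 0.05. Only points at 5 MPa are filled, from 1.31 for Lcn2 to 7.75 for Ngp, and Prtn3 at -0.39 is open.

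At 0 MPa none of the 8 genes passed (edgeR; 0 had an unadjusted p under 0.05), against 29.9% of all genes tested. The log2 fold changes were of the same sign as at 5 MPa, except that Mpo and Lcn2 turned just below 0 with library sizes alone and Prtn3 turned to 0.64 without metatarsal control library 1. Their SEs were larger, with values of 4.36 ± 2.45 for S100a9 (adjusted p = 0.200, edgeR), 4.28 ± 3.09 for Ltf, 4.18 ± 4.82 for Ngp, 2.93 ± 1.53 for Camp and 2.08 ± 1.73 for S100a8. With DESeq2 1 of 10 passed, S100a9, and without the terms for run and type S100a8, S100a9, Ltf, Ngp and Camp passed, with log2 fold changes of 2.94, 3.68, 5.03, 7.73 and 3.03, against 44.4% of all genes in that fit. A fit within run 1 tested Elane in place of Prtn3 and had 1 metatarsal control, which was assumed to vary like the other groups. The median log2 fold change of its 8 genes was 6.32. With 1 metatarsal control the difference at 0 MPa was not settled within a run.

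At 50 MPa none passed (edgeR; 1 had an unadjusted p under 0.05, S100a8), against 19.7% of all genes tested. S100a8 was 3.49 ± 1.62 (log2, adjusted p = 0.155, edgeR) and S100a9 4.08 ± 2.21 (adjusted p = 0.234, edgeR), although the hip cap and metatarsal libraries of both genes did not overlap. Such a gap upwards was found for 18.4% of all genes tested. Mpo and Prtn3 had log2 fold changes below 0, at -0.50 ± 1.47 and -2.38 ± 1.40 (adjusted p = 0.871 and 0.270, edgeR). Without hip cap 5 MPa library 3, which is in neither group, S100a8 passed (3.46, adjusted p = 0.0411, edgeR). DESeq2 called S100a8 alone, with 2 of 10 genes given no adjusted p. The fit within run 1, again with Elane in place of Prtn3, had 1 metatarsal library at 50 MPa, likewise assumed to vary like the other groups. The median log2 fold change of its 8 genes was 1.01.

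Much of the signal at 5 MPa came from 1 hip cap library. Library 3 held 78.1% of the summed CPM of the 4 libraries for Ngp, 77.3% for S100a9, 75.9% for Ltf and 81.1% for Mpo, but 29.4% for Lcn2. Its level was 42.4 times the median of the other libraries for Ngp, 23.6 times for Ltf, 19.5 times for S100a9, 18.0 times for Mpo and 11.8 times for S100a8, and 1.27 times for Lcn2. Library 1 was next for 8 of the 10 genes, and library 4 was highest for Lcn2 and next for Prtn3.

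Without library 3 the calls for S100a8, S100a9, Ltf, Ngp and Camp at 5 MPa still passed, with log2 fold changes of 5.01, 5.27, 5.24, 6.04 and 1.99. Mpo was at 0.62 (adjusted p = 0.415, edgeR) and Lcn2 was at 1.30 (adjusted p = 0.0781, edgeR). Prtn3 was then lower in hip caps, at -2.0 (adjusted p = 0.0204, edgeR). Without library 3 and the batch terms together, a fit chosen after seeing the data, Camp no longer passed. S100a8, S100a9, Ltf and Ngp still passed there, where 6779 of 21164 genes tested did.

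**Figure D4:**
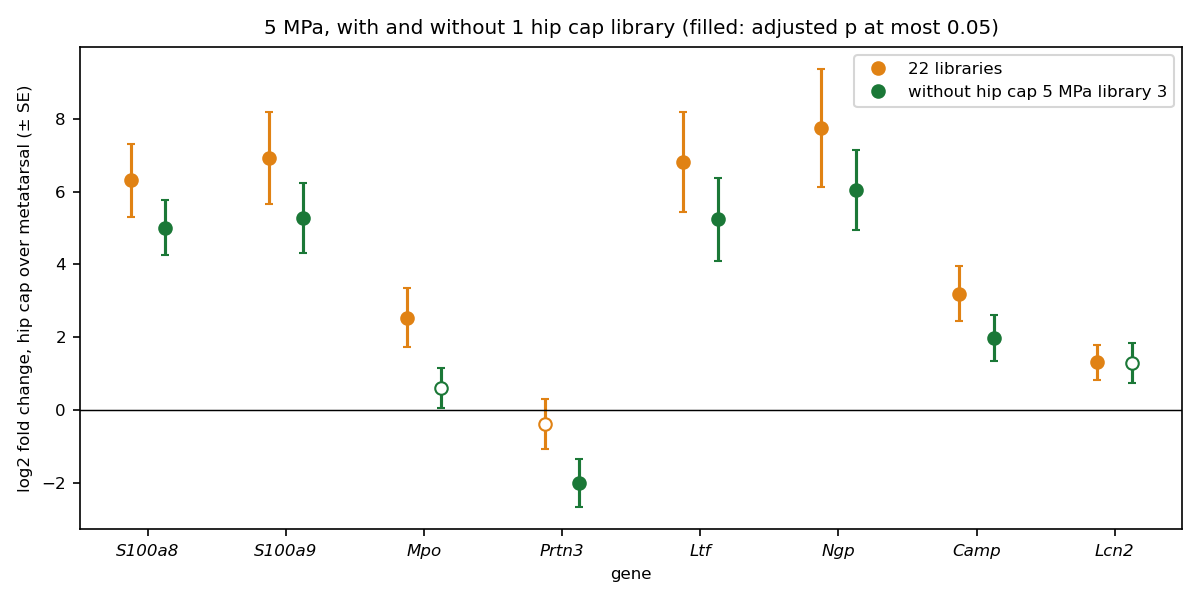
Log2 fold change of hip caps over metatarsals at 5 MPa (vertical axis, ± SE of the edgeR fit) for the 8 genes tested, over the 22 libraries and without hip cap 5 MPa library 3; filled points have an adjusted p of at most 0.05. S100a8, S100a9, Ltf, Ngp and Camp stay filled without it, Mpo and Lcn2 become open, and Prtn3 becomes filled at -2.0.

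Hydrostatic pressure was then compared with control within hip caps. At 5 MPa none of the 8 genes tested passed (edgeR; 0 had an unadjusted p under 0.05), against 0.0188% of all genes tested, and with DESeq2 none of 10 passed, with 2 at an unadjusted p under 0.05 and 4 given no adjusted p. All 10 genes overlapped between the groups. Ngp had the largest log2 fold change, 7.31 ± 4.01 (adjusted p = 0.423, edgeR), and S100a8 had 2.92 ± 2.02 (adjusted p = 0.510, edgeR). Every 5 MPa hip cap was from run 2 and every control used was from run 1. In this fit the run was therefore separated from pressure only through the metatarsals. Library type also varied among the controls used, where library 3 was unstranded and libraries 1 and 2 were stranded. Without the terms for run and type Ngp was at 2.77. Leaving out library 3 gave 5.54 for Ngp, and turned S100a9 from 0.63 to -1.04, Ltf from 1.17 to -0.41 and Mpo from 0.28 to -1.65.

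The hip cap control from run 2, which was also stranded, was library 4, which the study had left out. It held 12.8 CPM of S100a8 and 11.4 CPM of S100a9, above 3 of the 4 libraries at 5 MPa, and 1.43 CPM of Ngp and 1.98 CPM of Ltf, above 2 of the 4.

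At 50 MPa none of the 8 genes passed against hip cap controls (edgeR; 2 had an unadjusted p under 0.05, Ltf and Mpo), against 5.18% of all genes tested. That share rested on control library 3, without which 1 gene in all was called. Every 50 MPa hip cap was unstranded, and of the controls used only library 3 was. The fit therefore separated library type from pressure only through control library 3 and metatarsal 50 MPa library 4. Control library 3 also had the highest summed CPM of the 10 genes among the controls, at 79.6, against 15.6 in the lowest. DESeq2 called none of 10, with 3 at an unadjusted p under 0.05 and 4 given no adjusted p. All 8 had log2 fold changes below 0 in this fit, with a median of -2.14 against 0.02 for all genes tested, from -0.13 ± 0.69 for Lcn2 to -5.07 ± 1.61 for Ltf (adjusted p = 0.0770, edgeR), and Mpo had -2.97 ± 1.21 (adjusted p = 0.151, edgeR). The sign was not stable for Prtn3, Lcn2 and S100a8. Without control library 3, Prtn3 turned to 4.06 and Lcn2 to 1.09, and without the terms for run and type S100a8 and Lcn2 were at 0.05 and 0.52, Lcn2 being also above 0 with library sizes alone (0.35). Ltf was at 0.371 ± 0.407 CPM (SD, n = 3) after 6.64 ± 8.33 CPM (SD, n = 3) in controls, and the highest control was library 3. Within run 1, where Elane was tested in place of Prtn3, none of 8 passed and 3 had an unadjusted p under 0.05 (edgeR). Of all genes 0 passed there.

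Elane and Mpo were lower in CPM in all 3 libraries used at 50 MPa than in the 3 controls used. The exact permutation p was 0.1 (two-sided), the smallest that 3 against 3 libraries can give. For Elane, 50 MPa library 3 had 2 counts (0.134 CPM) and control library 2 had 1 count (0.154 CPM), so this gap came from library scaling. Of the 8 genes tested 1, Mpo, was lower without overlap, against 7.55% of all genes tested. Once the libraries left out by the study were included, no gene stood apart, and 50 MPa library 2 held 7.02 CPM of Mpo and 2.84 CPM of Elane. Leaving out 5 MPa library 3, which is in neither group but in the same fit, brought Ltf and Mpo past the threshold (adjusted p = 0.0262 and 0.0181, edgeR), and leaving out 5 MPa library 4 brought Ltf past it.

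In metatarsals no granule gene passed at 5 or 50 MPa against control (edgeR; 0 had an unadjusted p under 0.05 in either), and 0% of all genes tested did. DESeq2 called none of 10, with 0 and 1 genes at an unadjusted p under 0.05. Lcn2, the gene with the most counts there, averaged 8.20 ± 3.82 CPM (SD, n = 4) in controls, 8.90 ± 1.78 CPM (SD, n = 4) at 5 MPa and 11.0 ± 4.28 CPM (SD, n = 4) at 50 MPa. The other 9 genes together held 2.04 to 4.93 CPM in controls, 1.26 to 2.83 at 5 MPa and 1.77 to 3.25 at 50 MPa. Mpo reached 43 counts and Prtn3 29 counts in a metatarsal library, and Elane, Ngp and Retnlg at most 7.

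The difference between the tissues in their response to pressure was tested as an interaction. None of the 8 genes passed at 5 MPa (edgeR; 0 had an unadjusted p under 0.05), against 0.0188% of all genes, or at 50 MPa (0 under 0.05), against 0.132%. DESeq2 called none either, with 1 gene at an unadjusted p under 0.05 at 5 MPa and 0 at 50 MPa.

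Other genes of the neutrophil lineage were read beside the 10. Of the defining markers, Ly6g was at or near 0 throughout, with 0 to 3 counts per library, while Cxcr2 had 5 to 159 counts in every library of both tissues. Cxcr2 was at 3.98 to 7.42 CPM in metatarsals and 1.11 to 5.27 CPM in the hip caps used. It reached 9.41 and 18.7 CPM in the hip caps left out. Csf3r overlapped, at 0.185 to 1.70 CPM in metatarsals and 0 to 6.72 CPM in hip caps, highest in 50 MPa library 2. Ctsg had at most 4 counts in metatarsals and 16 in hip caps. Chil3, a chitinase-like protein of myeloid cells, had 272 counts in hip cap 5 MPa library 3, 1 to 50 in the other hip caps and at most 2 in metatarsals. Cd177, a neutrophil surface protein, was at 7.19 CPM in that library, 5.97 in 50 MPa library 2, 2.52 in control library 4 and at most 0.175 in metatarsals. Mmp8, neutrophil collagenase, was at 15.5 CPM in library 3 at 5 MPa and 11.2 in library 3 at 50 MPa. Of 9 other specific and gelatinase granule genes 8 were tested at 5 MPa, and 5 were higher in hip caps, namely Mmp8, Mmp9, Itgam, Hp and Chil3, while Olfm4 was lower. Their median log2 fold change was 1.76, against -0.08 for all genes. Mmp9 is also abundant in osteoclasts and stood at 298 to 952 CPM in hip caps at 5 MPa.

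The remaining neutrophil lists were mixed. Of 4 other azurophil and promyelocyte genes 1 could be tested and did not pass. Of 8 tested receptor and surface genes 1 was higher in hip caps at 5 MPa, the integrin subunit Itgb2, and of 6 oxidase genes 3 were higher (Cybb, Ncf1 and Ncf4). Of 6 transcription factors of granulopoiesis that could be tested 5 were higher, namely Spi1, which encodes PU.1, Runx1, Gfi1, Cebpb and Cebpd, with log2 fold changes between 0.80 and 1.96. Cebpe, which drives the specific granule genes, was at 0 to 0.50 CPM in all libraries except hip cap 50 MPa library 2, where it was at 3.43 CPM. The neutrophil-attracting chemokines Cxcl1, Cxcl2 and Cxcl3 were all higher in hip caps, by 3.28, 2.65 and 2.62 (log2), 3 of 5 tested in their list. Of 2 tested stefin A and calgranulin neighbours Wfdc21 was higher.

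Markers of other cells moved with the granule genes in hip cap 5 MPa library 3. The 9 granule genes other than Lcn2 summed to 184.7 CPM there, 17.7 times the median of the other 3 libraries. The summed markers were also higher there, by 4.12 times for macrophages and monocytes (10 genes, 688 CPM), 3.99 times for endothelium (6 genes), 3.99 times for erythroid cells (10 genes), 2.90 times for mast cells and basophils (8 genes), 2.56 times for osteoblasts (6 genes), 2.30 times for B cells (8 genes) and 2.09 times for osteoclasts (8 genes). The 6 eosinophil genes summed to 4.20 CPM, 10.3 times the median, which was 0.409 CPM, whereas the 10 chondrocyte genes stood at 0.55 times. T and NK cell genes were at 1.09 times and megakaryocyte and platelet genes at 1.46 times. The part of any of these cells in the granule gene values was not tested.

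**Figure D5:**
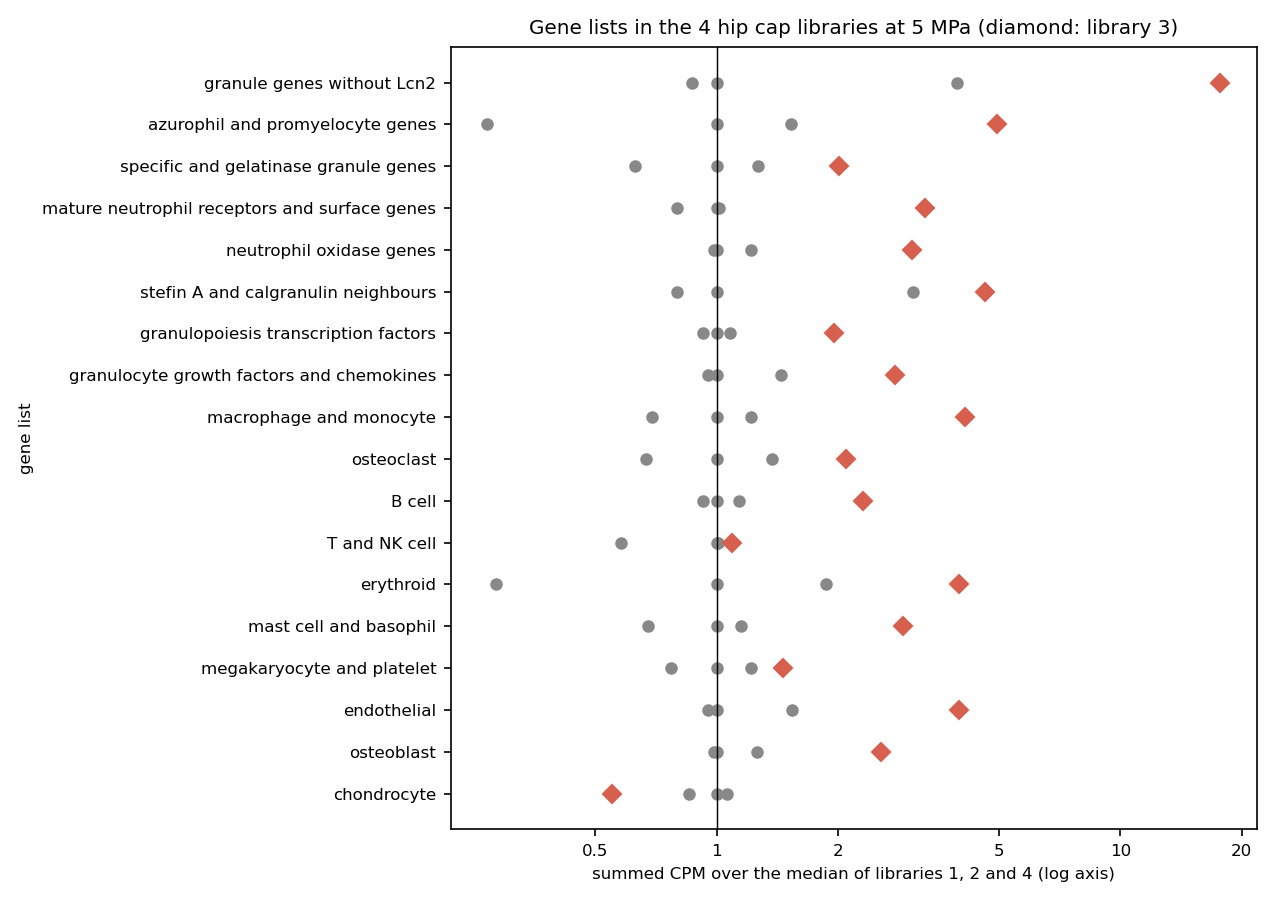
Summed CPM of the granule genes without Lcn2 and of 17 other gene lists (the eosinophil list is not drawn) in the 4 hip cap libraries at 5 MPa, each divided by the median of libraries 1, 2 and 4 (horizontal log axis); diamonds are library 3 and circles are the other libraries. The granule genes without Lcn2 lie at 17.7 times, the other immune, vessel and bone lists mostly between 2 and 5 times, and the chondrocyte list at 0.55 times.

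Across groups the summed marker levels did not follow the granule genes alike. Granule genes without Lcn2 ranged from 4.80 to 184.7 CPM in hip caps and from 1.26 to 4.93 CPM in metatarsals. Macrophage and monocyte genes ranged from 96.6 to 765 CPM in hip caps and 62.7 to 123 in metatarsals, with 4 of 10 tested genes higher in hip caps at 5 MPa. Endothelial genes overlapped, at 48.0 to 236 CPM and 71.6 to 116 CPM, with none of 6 called at 5 and 50 MPa and 1 of 6 lower in hip caps at 0 MPa (edgeR). Mast cell genes went the other way, with 5 of 6 tested lower in hip caps at 5 MPa (Cpa3, Cma1, Tpsab1, Tpsb2 and Mcpt4). Osteoclast genes were higher in hip caps in 7 of 7 tested at 5 MPa, 3 of 7 at 0 MPa and 6 of 7 at 50 MPa. Erythroid genes were higher in 3 of 4 at 5 MPa and in 0 of 4 at 0 and 50 MPa, and the chondrocyte list was higher in 10 of 10 at each pressure.

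The genes whose log2 CPM was most like the mean of the 8 tested granule genes over the 12 hip cap libraries, among 14367 other genes with a mean of at least 1 CPM in hip caps, were Fam53b (Pearson r = 0.93), Ikzf1 (0.92), Vav1 (0.90), Wnt10b (0.89), Reep4 (0.88), Ly6c2 (0.87), Ighm (0.87) and Dock2 (0.87). Ikzf1 encodes a lymphoid and myeloid zinc finger factor, Vav1 and Dock2 encode exchange factors of blood cells, Ly6c2 a surface antigen of monocytes and Ighm the heavy chain of IgM. Each stood highest of the hip caps in 5 MPa library 3, and without that library the correlations were 0.77 to 0.89 over 11 libraries. The hip cap libraries of a pressure share their run, except control library 4, so these are descriptions without a test.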

How the data were processed

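RNA-seq was read in 24 libraries of murine hip caps and metatarsals. The authors trimmed reads with Trim Galore 0.6.5, quantified transcripts with kallisto against GRCm39 per the labels, and summed them to genes with tximport. The annotation release was not given in the sources used here. The deposited values are estimated counts per gene, of which 27.0% were not whole, and they were rounded here. They hold no coordinates, so gene lengths, shared 31-base words and promoters came from GRCm38 annotation.

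Totals ranged from 4185241 to 25104240, and at the lowest counts counting error limits precision. Genes were filtered with filterByExpr, scaled by TMM (CPM here means TMM-scaled counts per 1000000) and tested with edgeR 4.0.16 (R 4.3.3) in 1 quasi-likelihood fit over the 22 libraries the study used, with terms for group, run and library type and Benjamini-Hochberg adjustment over 21283 genes at 0.05. Library type is from the labels, and run was read from the colour strip of a published heat map, with run sizes that differ from the kit sizes in the methods. Single genes were also compared by exact permutation over libraries. DESeq2 1.42.0, other scaling, no filter, all 24 libraries, other batch terms, a replicate block, single runs, single tissues and leaving out each library were the alternatives, and leaving out hip cap 5 MPa library 3 together with the batch terms was chosen after seeing the data. The edgeR script was tested on simulated data.

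The 10 genes and the 18 lists read beside them were chosen with earlier results of these data known. All 10 genes were named, and from other lists those past the threshold or among the 3 most abundant. Exceptions are Ly6g, Cxcr2, Cd177 and Cebpe, named after their values were seen. Csf3r and Ctsg were given so that the set of neutrophil markers was complete. Correlated genes were the 8 with the highest Pearson r over 12 hip caps among genes with a mean of at least 1 CPM. No column belonged to other samples, and no protein sequences were used here.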

Additional observations from a re-analysis of the deposited data

Results flagged for a closer look

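In 23 of 59 sets of 4 libraries, 1 gene in 1 group, the highest or lowest library stood apart from the other 3 (a gap to the nearest that was above Dixon's critical value for 4 samples). Chance gives about 1 in 20 sets of normally distributed values, but many sets here are counts near 0, where a single count beside 3 zeros meets the criterion, so the 23 cannot be read against that share. Hip cap 5 MPa library 3 stood apart for S100a9 (51.8 CPM), Elane (2.30), Mpo (11.0), Camp (6.14) and Prtn3 (2.05). Hip cap control library 3 stood apart for Elane (1.75 CPM), Ltf (16.1) and Camp (3.97).

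Hip cap 50 MPa library 2, left out by the study, stood apart for Elane (2.84 CPM), Mpo (7.02), Ltf (5.37) and Prtn3 (4.03). Its Elane, Mpo and Prtn3 also lay above all 4 hip cap control libraries, a signal in data that the comparisons did not use. The other 50 MPa libraries that stood apart were library 3 for Lcn2 (46.1 CPM) and library 4 for Camp, at 0.

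In metatarsals the libraries that stood apart had at most 26 counts. They were control library 3 for Ltf (0.664 CPM) and Retnlg (0.111), 5 MPa library 1 for S100a8 (0.391), Mpo (1.13) and Retnlg (0.0435), 5 MPa library 3 for Elane (0.285), and 50 MPa library 4 for Elane (0.148), Ngp (0.516) and Retnlg (0.0738).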

How the results depend on the processing

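The count of granule genes called in either direction at 5 MPa between the tissues was 7. It stayed within 1.5 times (5 to 9) in the alternatives other than leaving out a library, and between 6 and 8 when each library was left out. Of the 6 called without hip cap 5 MPa library 3, 5 were higher in hip caps and 1, Prtn3, was lower. The count was 4, all higher in hip caps, without that library and the batch terms together. At 0 MPa the count was 0 and became 3 over all 24 libraries, 5 without batch terms, 5 over all 24 without batch terms, 5 in the setting chosen after seeing the data and 1 with DESeq2. At 50 MPa it was 0 and became 2 without batch terms, 2 over all 24 without batch terms, 3 in the added setting and 1 with DESeq2. Of the 3 in the added setting, 2 were higher in hip caps and 1 was lower. The count at 50 MPa ranged from 0 to 1 when each library was left out (1 without hip cap 5 MPa library 3). For hip caps at 50 against 0 MPa it ranged from 0 to 2 when each library was left out, with 2 without 5 MPa library 3 and 1 without 5 MPa library 4. The cause of these changes was not tested. Same-numbered libraries were not paired: residuals of 23 pairs correlated between -0.10 and 0.17, and 5 were best matches. With the number as a replicate block, 1 gene, Ngp (log2 fold change 11.10, adjusted p = 0.0421, edgeR), was called in hip caps at 5 against 0 MPa, and no other count of granule genes changed.

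Over all genes, calls at 50 MPa between the tissues were 4198, and 7493 without batch terms, 1781 over all 24 libraries and 1058 without metatarsal 50 MPa library 4, and at 0 MPa they were 6372, and 9453 without batch terms and 2570 without metatarsal control library 1. In hip caps at 5 against 0 MPa they were 4, and 2027 without batch terms, 592 with DESeq2, 1257 without hip cap control library 2 and 176 with the block. At 50 against 0 MPa they were 1102, and 2488 with DESeq2, 44 with library sizes alone, 2 over all 24 libraries, 1 without hip cap control library 3, 263 without 50 MPa library 3 and 2434 without control library 2. Of the fold changes of single genes, 674 kept their call and direction outside the fits that leave out a library, 71 moved, 28 passed newly and 12 no longer passed, and no called one changed sign. At the lowest level, a gene at 0 counts may be present below 3 counts.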
